A study of Mus musculus with 17 samples.

Results

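The bone marrow (BM) lines compared here are 4 libraries of the 17 samples in the series, 2 labelled CD44low and 2 labelled CD44high. They were grown from the bone marrow of female FVB/NJ MMTV-PyMT mice aged 10 to 12 weeks, in which the mouse mammary tumor virus promoter drives the polyoma middle T oncogene in mammary epithelium. All 4 come from carriers of that transgene, and after about 1 month of culture the cells were sorted as CD44low/EpCAMhigh or CD44high/EpCAMhigh. The 2 replicates of a group are separate clonal isolates from different mice, so each group stands for 2 clones. The lymph node (LN) and lung lines, sorted in the same way, and the primary tumor line of the mammary fat pad (MFP) are used only for comparison, with 2 libraries in each of these 5 groups. Of the 55450 genes in the deposited table, 12489 had at least 1 TPM (RSEM's measure of transcript abundance, corrected for length) in 2 or more of the 4 BM libraries and are the genes described.

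CD44 is a surface receptor for hyaluronan that is used to sort carcinoma cells with stem-like or migratory behavior, and EpCAM is an adhesion molecule of epithelial cells. Tumor epithelium can make acute-phase proteins, complement and chemokines of its own. Serum amyloid A proteins and lipocalin 2 are produced on infection or injury, CXC chemokines such as CXCL1 and CXCL5 attract neutrophils through the receptor CXCR2, and NF-kB and C/EBP factors are the best known activators of such genes. TLR2 is a receptor for bacterial lipoproteins and for fragments of hyaluronan, and it signals to NF-kB.

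The comparison asks which genes separate BM cells sorted as CD44high from those sorted as CD44low. Of the 8 genes called higher in CD44high cells, *SAA3*, *CXCL5* and *TLR2* were above 1 TPM in both CD44low libraries. The other 5, *SAA1*, *SAA2*, *NOS2*, *VNN3* and the pseudogene Gm12306, were below 1 TPM in both and passed the BM filter on low values through the CD44high libraries alone. The 8 genes called lower were listed at 0 in both CD44high libraries and passed that filter through the CD44low libraries alone. The RNA of *CD44* itself did not separate the groups. The proximal promoters of 4 of the called genes and of *CXCL1*, which was not called, are shown because factors of the NF-kB and C/EBP families are known to act on genes of this kind. The 5 were chosen after their values were seen, and those of *CXCL5* and *NOS2* are not shown. Each run is the 250 bases before the start site in RefSeq on GRCm38.p6, 5′ to 3′ on the strand of the gene. Capitals mark matches on either strand to GGG and TTCC parted by any 3 bases (NF-kB) or to TTGC and AA parted by any 2 (C/EBP). Overlapping matches are joined.
Saa3 (chr7:46715677-46715926, minus strand): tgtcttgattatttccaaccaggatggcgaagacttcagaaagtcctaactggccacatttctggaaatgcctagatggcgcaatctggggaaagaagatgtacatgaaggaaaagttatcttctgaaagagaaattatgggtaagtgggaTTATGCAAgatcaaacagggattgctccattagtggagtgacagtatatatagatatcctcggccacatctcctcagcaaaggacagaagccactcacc
Saa1 (chr7:46742981-46743230, minus strand): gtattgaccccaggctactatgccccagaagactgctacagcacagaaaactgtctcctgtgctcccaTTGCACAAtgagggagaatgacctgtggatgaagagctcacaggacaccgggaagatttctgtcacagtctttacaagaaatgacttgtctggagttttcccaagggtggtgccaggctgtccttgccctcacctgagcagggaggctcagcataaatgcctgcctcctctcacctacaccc
Saa2 (chr7:46751583-46751832, plus strand): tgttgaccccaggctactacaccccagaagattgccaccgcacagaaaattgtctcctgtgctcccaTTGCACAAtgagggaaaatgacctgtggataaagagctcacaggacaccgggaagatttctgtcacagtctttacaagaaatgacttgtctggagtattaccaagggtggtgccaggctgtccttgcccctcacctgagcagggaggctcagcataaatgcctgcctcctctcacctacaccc
Cxcl1 (chr5:90890995-90891244, plus strand): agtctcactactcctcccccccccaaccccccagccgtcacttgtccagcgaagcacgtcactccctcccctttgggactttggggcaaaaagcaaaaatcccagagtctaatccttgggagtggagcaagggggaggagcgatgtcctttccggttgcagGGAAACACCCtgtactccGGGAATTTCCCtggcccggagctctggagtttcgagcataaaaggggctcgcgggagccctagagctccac
Tlr2 (chr3:83841609-83841858, minus strand): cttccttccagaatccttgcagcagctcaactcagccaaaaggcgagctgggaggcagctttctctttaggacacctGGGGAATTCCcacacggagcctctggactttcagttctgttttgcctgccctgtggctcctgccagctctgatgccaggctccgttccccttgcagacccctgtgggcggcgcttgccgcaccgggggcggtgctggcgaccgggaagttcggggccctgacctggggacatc
Each of the 3 serum amyloid A promoters held 1 C/EBP match and 0 NF-kB matches. The match began 99 bases before the start in *SAA3*, 182 in *SAA1* and 183 in *SAA2*. The runs of *SAA1* and *SAA2* are nearly the same sequence, so their matches are not independent. *CXCL1* held 3 NF-kB matches, beginning 89, 71 and 70 bases before the start, and *TLR2* held 1, beginning 173 bases before it. Among 32851 promoter entries of the same length, 4.65% held the NF-kB letters and 9.56% the C/EBP letters. A match is a stretch of letters and was not measured as a bound site.

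The labels were first set against the sort markers. *CD44* stood at 43.8 and 74.9 TPM in the CD44low libraries and at 50.5 and 49.0 TPM in the CD44high libraries. The CD44high values lay between the CD44low values, with a log2 fold change of -0.20 ± 0.44 (SE, n = 2 and 2; limma adjusted p = 0.93). The sign of this small value turned to 0.18 without BM CD44low replicate 2 and to 0.08 under another scaling. The sort used surface protein, which was not measured in these libraries, so the groups are named by their sort labels. No RNA value checked here shows which BM libraries came from which sort, and every direction below rests on the labels: had the labels of the groups been exchanged, each sign would turn. *EPCAM* stood at 794 and 464 TPM in CD44low and at 700.2 and 519 TPM in CD44high cells, again with overlapping groups.

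All 4 libraries expressed epithelial markers, and hematopoietic and endothelial markers were low. The summed level of 10 epithelial markers was between 2390 and 4454 TPM, with *KRT19* at 0 in every library. Of 15 hematopoietic markers, 3 reached 1 TPM in any library and their sum stayed between 3.07 and 7.55 TPM. *PTPRC* (CD45), *LY6G*, *ADGRE1*, *TYROBP*, *CD52* and *MS4A1* were listed at 0 in all 4. None of 7 endothelial markers reached 1 TPM. The hemoglobin gene *HBA-A2* stood at 6.27 and 2.49 TPM in CD44low and at 0.06 and 0 TPM in CD44high cells, and its adjusted p was 0.15. The 11 fibroblast markers summed to between 43.6 and 46.2 TPM in all 4 libraries. Of 7 bone marrow stroma markers 3 reached 1 TPM, and their sum was 58.9 TPM in CD44low replicate 2, of which *KITL* made up 54.7 TPM, and 13.1 to 14.9 TPM in the others. Of 7 osteoblast markers 5 reached 1 TPM, and their sum was 60.96 TPM in CD44high replicate 1 and 37.3 to 42.5 TPM in the others. The part of such cells in the differences was not tested.

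Within this set, 8 genes rose and 8 fell in CD44high cells at an absolute log2 fold change over 2 and an adjusted p under 0.05, 0.0521% of the 15348 genes tested in each direction. The fit used log2(TPM + 1) of all 14 bulk libraries as 7 groups, which gave 7 residual degrees of freedom. With 4 libraries alone, limma called 0 genes, with 616 at an unadjusted p under 0.05 and a smallest adjusted p of 0.146. An exact permutation test of 2 against 2 libraries cannot give a two-sided p under 0.333, so the calls rest on the spread pooled over all groups. In bulk RNA, more cells expressing a gene and more RNA per expressing cell cannot be told apart.

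**Figure D1:**
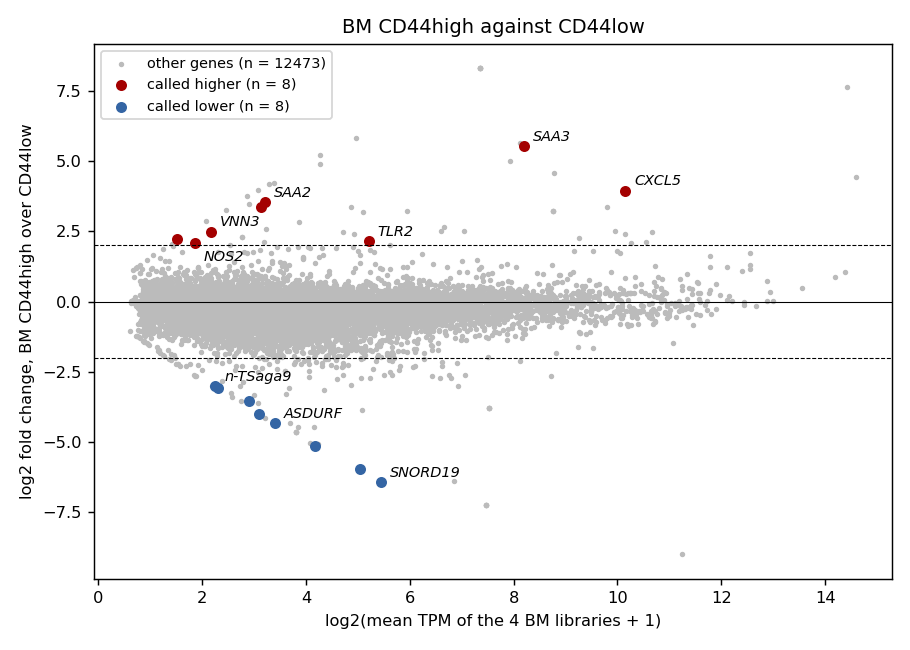
Log2 fold change between BM CD44high and CD44low cells (y axis) against the log2 mean TPM of the 4 BM libraries (x axis) for the 12489 genes. Red and blue points are the 8 genes called higher and the 8 called lower, and dashed lines mark a change of 2 in either direction. *SAA3* and *CXCL5* are the called genes with both a high level and a large rise.

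The serum amyloid A genes, whose products are acute-phase proteins of high-density lipoprotein, included the largest called rise. *SAA3* stood at 9.15 and 11.2 TPM in CD44low and at 827 and 317 TPM in CD44high cells. Both CD44high clones were far above both CD44low clones, although they differed from each other as well. The log2 fold change was 5.53 ± 0.51 (SE; limma adjusted p = 0.0015). *SAA2* rose from 0.20 and 0.57 TPM to 22.4 and 9.74 TPM, by 3.53 ± 0.32 on the log2 scale (adjusted p = 0.0012). *SAA1* rose from 0.47 and 0.46 TPM to 20.8 and 9.33 TPM, by 3.35 ± 0.28 (adjusted p = 0.0011). *SAA1* and *SAA2* lie next to each other on chromosome 7 and share part of their sequence: 31.1% of the 50-base windows of *SAA1* transcripts also occur in *SAA2*. How their reads were divided is therefore uncertain, while only 0.346% of the *SAA3* windows occur in *SAA1* and 0 in *SAA2*.

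The chemokine *CXCL5*, a neutrophil attractant, was among the most abundant called genes. It stood at 184 and 96.9 TPM in CD44low and at 2555 and 1685 TPM in CD44high cells, a log2 fold change of 3.95 ± 0.57 (adjusted p = 0.032). The means differed 15.1-fold. *TLR2* stood at 15.4 and 10.1 TPM in CD44low and at 64.9 and 53.6 TPM in CD44high cells, a log2 fold change of 2.15 ± 0.23 (adjusted p = 0.0049). Its 2 CD44high values were close together and 4.64-fold above CD44low on average. *NOS2*, the inducible nitric oxide synthase, stood at 0.51 and 0.25 TPM against 5.37 and 4.42 TPM (2.10 ± 0.21, adjusted p = 0.0028). *VNN3*, of the pantetheinase family, stood at 0.30 and 0.33 TPM against 8.68 and 4.62 TPM (2.49 ± 0.22, adjusted p = 0.0012). These 2 genes were at or below 1 TPM in both CD44low clones and at a low level in the CD44high clones. The remaining called rise was the processed pseudogene Gm12306, listed at 0 in both CD44low libraries and at 3.32 and 4.08 TPM in CD44high.

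BM CD44low replicate 2 stood apart from the other BM libraries, as described further below, and 4 of these 8 rises kept their call without it: *SAA3*, *SAA2*, *SAA1* and *VNN3*. Without that library the log2 fold change was 3.49 for *CXCL5*, 1.87 for *TLR2*, 1.96 for *NOS2* and 2.23 for Gm12306. *CXCL5* and Gm12306 also lost their call without either CD44high library, at 3.65 and 4.25 for *CXCL5* without replicate 1 and replicate 2, and 2.34 and 2.11 for Gm12306, and *NOS2* lost it without CD44high replicate 1 (1.98). With a pseudocount of 0.1 in place of 1, *NOS2* and Gm12306 were not called. The serum amyloid A genes and *VNN3* also kept their call without any other single BM library. However, *SAA1*, *SAA2* and *VNN3* were at or below 0.57 TPM in every bulk library outside BM CD44high. They entered the fit through that group alone, and their SE is pooled over groups at or near 0. Their kept calls are therefore no added support.

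The 8 called falls were of another kind. All were listed at 0 in both CD44high libraries, so they passed the BM filter through the CD44low libraries alone, which fixed their direction. Of these falls, 7 were small RNA gene models with 76 to 130 exonic bases, and 1 was protein-coding. *SNORD19*, a small nucleolar RNA gene inside *GNL3*, stood at 93.6 and 77.6 TPM in CD44low cells (log2 fold change -6.43 ± 0.17, adjusted p = 9.4e-08). The transfer RNA-derived gene n-TSaga9 stood at 10.2 and 4.89 TPM (-3.02 ± 0.24, adjusted p = 0.00099). *ASDURF*, the protein-coding member, has 300 exonic bases, lies within *ASNSD1* on the same strand, and stood at 21.6 and 16.6 TPM (-4.32 ± 0.52, adjusted p = 0.0091). Its call was lost without CD44low replicate 2 (-4.50) and without either CD44high library (-4.32). The other 5 are known by model numbers only: Gm22710, Gm24148, Gm24888, Gm23394 and Gm26384. *SNORD19*, n-TSaga9, Gm24148, Gm23394 and Gm26384 were also listed at 0 in all LN, lung and MFP libraries. They entered the fit through BM CD44low alone, and their SE is pooled over groups in which every value was 0. Of the 8, n-TSaga9 alone overlapped no other annotated gene, so that for the other 7 the estimate depends on how reads were shared with a longer gene. The next largest differences without overlap were also in small RNA genes, such as *SNORD91A* at 0 in both CD44low libraries and at 36.2 and 36.6 TPM in CD44high, and *MIR1894* at 16.4 and 16.5 TPM in CD44low and at 0 in CD44high, and were not called (adjusted p = 0.28 and 0.31). Since no read counts are used here, a value of 0 in such short models cannot be read as absence, and no fold bound is given.

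Without the test, groups that did not overlap were common and uneven in direction. Both CD44high values lay above both CD44low values in 921 of the 12489 genes (7.37%) and below them in 3469 (27.8%). BM CD44low replicate 2 was the more distant of the 2 CD44low libraries in 2675 of those 3469 genes. The split depended on scaling: after division by median-ratio factors the counts over the same 12489 genes were 1845 and 1729 (1922 and 1766 of the 12772 genes that pass the filter after scaling), and the median log2 fold change of all genes moved from -0.23 to 0.01. With a gap of more than 1 on the log2 scale between the groups, 58 genes were higher (0.46%) and 84 lower (0.67%). Protein-coding genes made up 27 of the 58 and 8 of the 84. Of the 12489 genes, 100 passed the filter only through the CD44high and 217 only through the CD44low libraries.

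**Figure D2:**
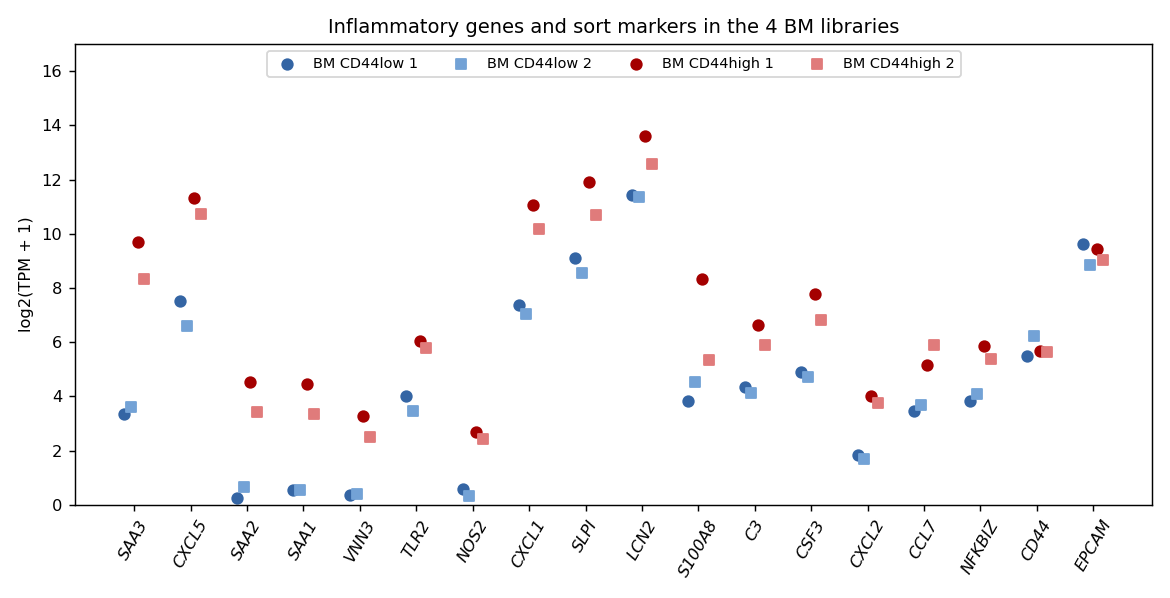
Levels of 16 inflammatory genes and of the sort markers *CD44* and *EPCAM* in the 4 BM libraries, as log2(TPM + 1). Circles are replicate 1 and squares replicate 2, blue is CD44low and red CD44high. The 16 genes were chosen after their values were seen, and other members of their lists overlapped or went the other way. For each inflammatory gene shown both red points lie above both blue points, while the colors mix for *CD44* and *EPCAM*.

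In the list of complement, acute-phase and antimicrobial genes most measured members had higher values in CD44high cells. Of 31 genes in this list 20 were measured, and both CD44high values lay above both CD44low values for 18, against 7.37% of all genes, and below for 2. The 3 called members were the serum amyloid A genes, and the median log2 fold change of the list was 1.52, against -0.23 for all genes. Of the 18, 4 passed the filter on low values through the CD44high libraries alone, which fixed their direction. Among the 16 members that reached 1 TPM in both groups, 14 were higher without overlap, against 6.74% of all such genes. *LCN2*, an iron-siderophore binding protein, was the most abundant member at 2734 and 2609 TPM in CD44low and 12527 and 6172 TPM in CD44high cells. Its groups did not overlap, but the log2 fold change of 1.72 ± 1.04 was not called (limma adjusted p = 0.64). The SE is pooled over all groups, including MFP, where *LCN2* stood at 356 and 36.7 TPM. *SLPI*, a secreted inhibitor of neutrophil proteases, stood at 555 and 373 TPM against 3889 and 1657 TPM (2.48 ± 0.47, adjusted p = 0.14). *S100A8*, a calcium-binding antimicrobial protein, stood at 13.1 and 22.4 TPM against 325 and 39.5 TPM. The higher of the CD44high values was that of replicate 1.

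Of the complement genes, *C3*, the central component, stood at 19.6 and 16.5 TPM in CD44low and at 98.7 and 58.4 TPM in CD44high cells (log2 fold change 2.02 ± 0.44, adjusted p = 0.22). *CFB*, the protease of the alternative pathway, stood at 3.07 and 2.27 TPM against 17.5 and 7.96 TPM. *HP*, haptoglobin, stood at 1.5 and 1.12 TPM against 24.2 and 6.64 TPM. These 3 genes were chosen after their values were seen, and for each the replicate 1 value was the higher of the CD44high pair. The members in the other direction were *CD59A*, an inhibitor of complement, and the lysozyme gene *LYZ2*, which stood at 4.11 and 2.32 TPM against 0.52 and 1.29 TPM.

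Chemokine ligands showed the same order in most measured members. Both CD44high values lay above both CD44low values for 8 of the 14 measured (57.1%, against 7.37% of all genes) and below for 3 (21.4%, against 27.8%), and the median log2 fold change was 0.89. *CXCL1*, which like *CXCL5* acts on neutrophils, stood at 167 and 132 TPM in CD44low and at 2119 and 1146 TPM in CD44high cells. Its means differed 10.9-fold, as a log2 fold change of 3.39 ± 0.68 that did not pass the adjustment (adjusted p = 0.16). *CXCL2*, a related ligand, stood at 2.58 and 2.21 TPM against 15.2 and 12.4 TPM. The monocyte attractants *CCL7* and *CCL2* were also separated, at 9.98 and 11.9 against 34.5 and 59.1 TPM for *CCL7* and at 56.3 and 61.9 against 101 and 196 TPM for *CCL2*. For these 2 genes replicate 2 was the higher of the CD44high pair. *CXCL16*, a ligand on the cell surface, went the other way at 6.80 and 4.50 against 1.51 and 3.17 TPM.

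Of 17 measured cytokines 3 were higher without overlap and 3 lower, 17.6% each way against 7.37% and 27.8% of all genes. After median-ratio scaling the shares were 23.5% higher and 5.88% lower, against 14.8% and 13.8% of all genes. One of the 3 higher members, *TNF*, passed the filter through the CD44high libraries alone, and 2 of the other 16 were higher. *CSF3*, the granulocyte colony-stimulating factor, stood at 28.8 and 25.1 TPM against 219.8 and 112 TPM (log2 fold change 2.50 ± 0.81, adjusted p = 0.62). *TNF* stood at 0.14 and 0.45 TPM against 5.91 and 1.79 TPM. *IL1RN*, the interleukin 1 receptor antagonist, stood at 43.2 and 46.5 TPM against 111 and 59.4 TPM. The 3 genes were the members with higher CD44high values, and none was called.

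Genes that NF-kB is known to induce, including its own inhibitors, lay higher in 15 of 23 measured members (65.2%, against 7.37% of all genes) and lower in 1 (4.35%, against 27.8%), or higher in 14 of the 22 that reached 1 TPM in both groups, with a median log2 fold change of 0.65. *NFKBIZ*, a nuclear co-regulator, stood at 13.1 and 16.0 TPM in CD44low and at 57.5 and 40.4 TPM in CD44high cells. *SOD2*, the mitochondrial superoxide dismutase, stood at 141 and 108 TPM against 373 and 245 TPM. *NFKBIA*, the inhibitor that closes the feedback loop, stood at 139 and 114 TPM against 273 and 234 TPM. These changes were at most 1.67 on the log2 scale, and 0 of the 23 genes were called (adjusted p = 0.12 for *SOD2*, 0.31 for *NFKBIA* and 0.44 for *NFKBIZ*). *NFKBIB*, another inhibitor, at 47.6 and 53.7 against 36.3 and 35.3 TPM, was the single member with lower CD44high values.

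Interferon-stimulated and antigen presentation genes had smaller medians. Of 40 measured interferon-stimulated genes 20 were higher without overlap and 1 lower (2.50%), against 7.37% and 27.8% of all genes, with a median log2 fold change of 0.47. *IFITM3*, which restricts virus entry, stood at 350 and 261 TPM against 880 and 383 TPM, and *USP18*, which removes ISG15 from proteins, at 2.35 and 1.62 against 7.54 and 3.50 TPM. Of 18 measured genes of MHC class I presentation 10 (55.6%) were higher and 0 lower, with a median of 0.51. *H2-K1*, a class I heavy chain, stood at 1394 and 565 TPM against 1812 and 1433 TPM, and the peptide transporter *TAP1* at 7.71 and 7.26 against 15.9 and 9.91 TPM. None of these genes was called, and both medians rested largely on CD44high replicate 1. The interferon median was 0.18 without it and 0.77 without CD44high replicate 2, and the MHC class I median 0.28 and 0.71.

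**Figure D3:**
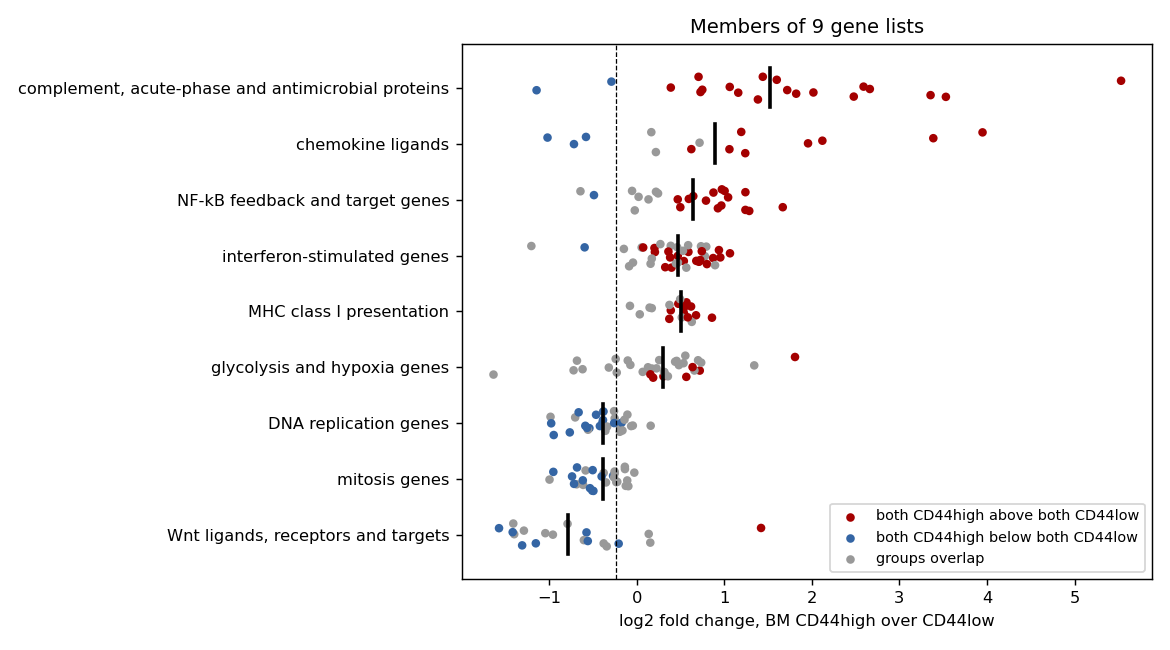
Log2 fold change between BM CD44high and CD44low cells (x axis) for the measured members of 9 gene lists (rows). Red points have both CD44high values above both CD44low values, blue points below, and gray points overlap. Black bars are list medians, from 1.52 for acute-phase genes to -0.79 for Wnt genes, and the dashed line is the median of all 12489 genes (-0.23).

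Cell cycle genes did not follow the inflammatory lists. Of 30 DNA replication genes 14 were lower in CD44high cells without overlap and 0 higher, and of 28 mitosis genes 11 were lower and 0 higher, against 27.8% lower of all genes. The medians were -0.38 and -0.39, against -0.23 for all genes. They were -0.20 and -0.14 without CD44high replicate 1, -0.55 and -0.66 without CD44high replicate 2, and under median-ratio scaling -0.11 in both lists, against 0.01. The counts lower without overlap then were 5 (16.7%) and 6 (21.4%), against 13.8% of all genes. *PRC1*, which bundles spindle microtubules, stood at 123 and 185 TPM in CD44low and at 68.6 and 87.6 TPM in CD44high cells. The helicase subunit *MCM3* stood at 36.9 and 62.6 against 22.9 and 26.1 TPM. Against BM CD44low replicate 1 alone, both CD44high values were lower for 23 of the 30 replication genes and 21 of the 28 mitosis genes, and lower for 43.0% of all genes. None of these genes was called.

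Of the metabolic lists, 8 of 30 NRF2 and glutathione genes were higher without overlap (26.7%) and 3 lower, or 14 and 0 after scaling. Of 33 glycolysis and hypoxia genes 7 were higher (21.2%) and 0 lower, but against BM CD44low replicate 1 alone both CD44high values were higher for 8 (24.2%, against 25.3% of all genes) and lower for 9. For the NRF2 list the count against that library was 13 higher and 9 lower. The shares without overlap of all genes were 7.37% higher and 27.8% lower, or 14.8% and 13.8% after scaling. None of these genes was called. *ALDH3A1*, an aldehyde dehydrogenase of the NRF2 list, stood at 532 and 192 TPM in CD44low and at 1073 and 1164 TPM in CD44high cells. Of the genes of other lists, *MGP*, the matrix Gla protein that inhibits calcification, stood at 432 and 342 TPM in CD44low and at 3319 and 798 TPM in CD44high cells, with an adjusted p of 0.62. *SPP1* (osteopontin), a bone matrix protein, stood at 6639 and 1793 TPM against 9361 and 6233 TPM, with overlapping groups. The tight junction gene *CLDN4* stood at 80.4 and 75.2 TPM against 38.4 and 33.4 TPM, and the smooth muscle gene *CNN1* at 5.92 and 6.60 against 0.71 and 1.41 TPM. *CNN1* passed the adjusted p (0.048) but not the fold threshold, at -1.84 on the log2 scale. *TRP63*, a transcription factor of basal epithelium, stood at 0.09 and 0.35 against 2.48 and 1.12 TPM, and passed the filter through the CD44high libraries alone.

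The same sort in LN asks whether these differences are shared between organs. The CD44 difference in BM exceeded that in LN for *SAA2* (by 3.35 on the log2 scale, adjusted p = 0.021), *SAA1* (3.35, adjusted p = 0.013), *VNN3* (2.49, adjusted p = 0.017) and *TLR2* (2.23, adjusted p = 0.038). Without BM CD44low replicate 2 the adjusted p was 0.052, 0.050, 0.056 and 0.056 in that order, so that none of these organ differences kept its call, while their sizes were 3.55, 3.35, 2.50 and 1.95. Each was also lost without either LN CD44high library (adjusted p from 0.066 to 0.18), that of *SAA2* without LN CD44low replicate 1 (0.052), and that of *TLR2* without LN CD44low replicate 1 (0.055) or without BM CD44high replicate 1 or 2 (0.14 and 0.093). *SAA1* and *VNN3* were listed at 0 in all 4 LN libraries, so that their organ difference repeats their BM fold change. *SAA2* was at 0 to 0.28 TPM in LN. *TLR2* was level there, at 11.7 and 11.5 TPM in CD44low and at 10.2 and 11.7 TPM in CD44high. For *CXCL5* the difference between organs was 0.65 with an adjusted p of 0.90, and LN CD44high cells were also higher, at 385 and 234 TPM against 55.9 and 15.6 TPM. *SAA3* stood at a far lower level in LN, at 0.48 and 0.66 TPM in CD44low and at 5.30 and 3.71 TPM in CD44high cells, and the organ difference of 3.73 did not pass the test (adjusted p = 0.13). *LCN2* in LN stood at 46.0 and 296 TPM against 3753 and 2686 TPM. In all, the CD44 difference in BM minus that in LN was called above 0 for 8 genes and below 0 for 10, 0.0521% and 0.0652% of the genes tested.

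Against the lung lines many more genes differed, 904 with a difference above 0 and 425 below 0 (5.89% and 2.77%) for BM minus lung. The lung cells lacked the epithelial marker, with *EPCAM* at 0 TPM in both lung CD44low libraries and at 0.23 and 0.86 TPM in lung CD44high. *CXCL5* ran opposite there, at 3.80 and 2.94 TPM in CD44low and at 0 in both CD44high libraries, and the difference between organs was 6.07. The RNA of *CD44* itself in LN stood at 147 and 82.7 TPM in CD44low and at 49.0 and 52.3 TPM in CD44high cells. Its log2 fold change there was -1.11, with CD44low the higher group. The *CD44* difference in BM minus that in LN, 0.91, was not called (limma adjusted p = 0.81).

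The 2 BM CD44low libraries differed from each other more than the libraries of any other pair. Over the same 12489 genes, 945 were more than 2 on the log2 scale higher in replicate 2 than in replicate 1 (7.57%) and 73 the other way (0.585%). The 2 CD44high libraries differed this far for 74 and 91 genes, and the most divergent other pair, LN CD44low, for 139 and 298. The SD of the difference over genes was 1.05 in BM CD44low, 0.673 in BM CD44high and between 0.470 and 0.867 in the other 5 groups. Replicate 2 also had more genes with at least 1 TPM, 13052, against 12008 to 12077 in the other BM libraries.

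**Figure D4:**
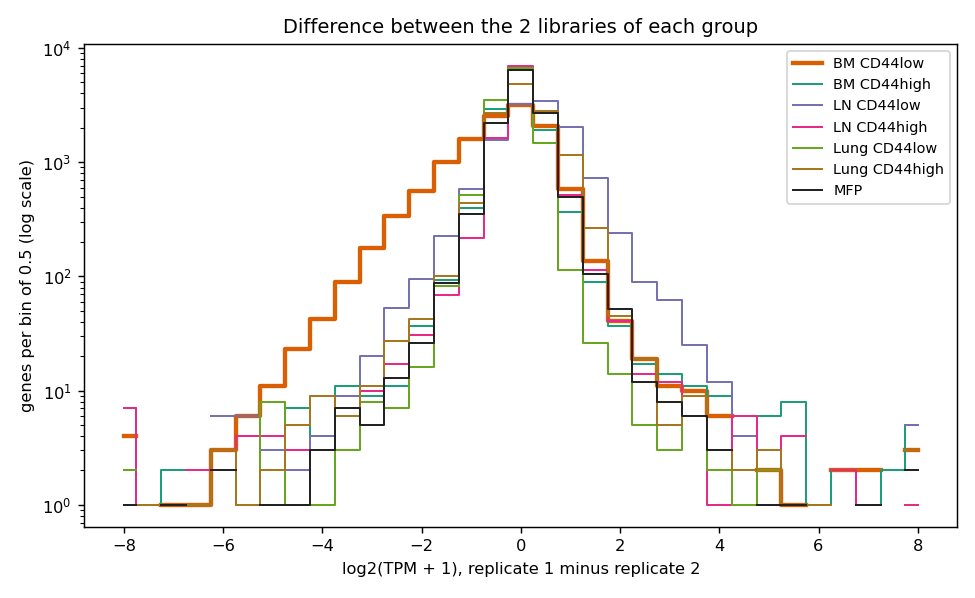
Number of genes (y axis, log scale) by the difference in log2(TPM + 1) between replicate 1 and replicate 2 (x axis, bins of 0.5) in each of the 7 groups, over 12489 genes. Differences past 8 in size are in the outer bins. The thick orange line, BM CD44low, has a shoulder on the left that the other 6 lines lack: 945 genes lie below -2.

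Of 8702 genes averaging at least 5 TPM in BM, 793 (9.11%) were more than 2 higher in replicate 2 on the log2 scale and 54 in replicate 1. Protein-coding genes made up 90.9% of the 793, against 92.0% of the 8702. In 773 of the 793, replicate 2 of CD44low was the highest of the 4 BM libraries, and in 710 both CD44high libraries lay within 1 of replicate 1 on the log2 scale. *JUND*, a subunit of the AP-1 transcription factor, stood at 3.40 TPM in replicate 1 and 138 TPM in replicate 2, against 2.90 and 2.64 TPM in CD44high cells. *RALY*, an RNA-binding protein, stood at 3.40 and 180 TPM, and *ERF*, a transcriptional repressor of the ETS family, at 1.72 and 93.0 TPM. *HIST2H3B*, a histone H3 gene, stood at 43.8 and 1552 TPM. Histone genes have near-identical copies, so its reads may have been divided among them.

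Among the pathway lists, Wnt genes had the largest share of members on this side. Of 19 measured, 8 were more than 2 higher in replicate 2, and the median difference was -1.64, against -0.28 for all genes. The co-receptor *LRP5* stood at 3.83 TPM in replicate 1, at 74.4 TPM in replicate 2 and at 6.43 and 5.96 TPM in CD44high cells. *LRP6* stood at 2.04, 17.2, 1.39 and 2.34 TPM in the same order, and the receptor *FZD7* at 5.41, 37.3, 5.40 and 5.44 TPM. The list median between the groups, -0.79, was 0.00 without replicate 2. Single genes of other pathways stood out in the same library. *VEGFA*, the endothelial growth factor, stood at 0.85 TPM in replicate 1 and at 16.4 TPM in replicate 2. *TGFB1* stood at 1.72 and 17.97 TPM, the stem cell factor gene *KITL* at 7.47 and 54.7 TPM, its receptor *KIT* at 4.63 and 29.4 TPM, and *GCLM*, of glutathione synthesis, at 14.2 and 224 TPM. For each, both CD44high values were near replicate 1.

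Among the genes lower in replicate 2, Rn7s1, a 7SL RNA gene, stood at 25084 TPM in replicate 1 and at 113 TPM in replicate 2, and Rn7sk, the 7SK RNA that holds back transcription elongation, at 1020 and 61.3 TPM. The glucose transporter *SLC2A1* stood at 121 and 13.2 TPM, against 128 and 85.5 TPM in CD44high cells, and the lactate transporter *SLC16A1* at 29.5 and 4.49 TPM, against 51.7 and 38.0 TPM. *LDHA*, lactate dehydrogenase, stood at 4316 and 1925 TPM, and *KRT8*, a keratin of luminal cells, at 1926 and 498 TPM. Of 33 glycolysis and hypoxia genes 2 were past 2 in this direction and 1, *VEGFA*, in the other. The list median between CD44high and CD44low, 0.31, was -0.05 without replicate 2.

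**Figure D5:**
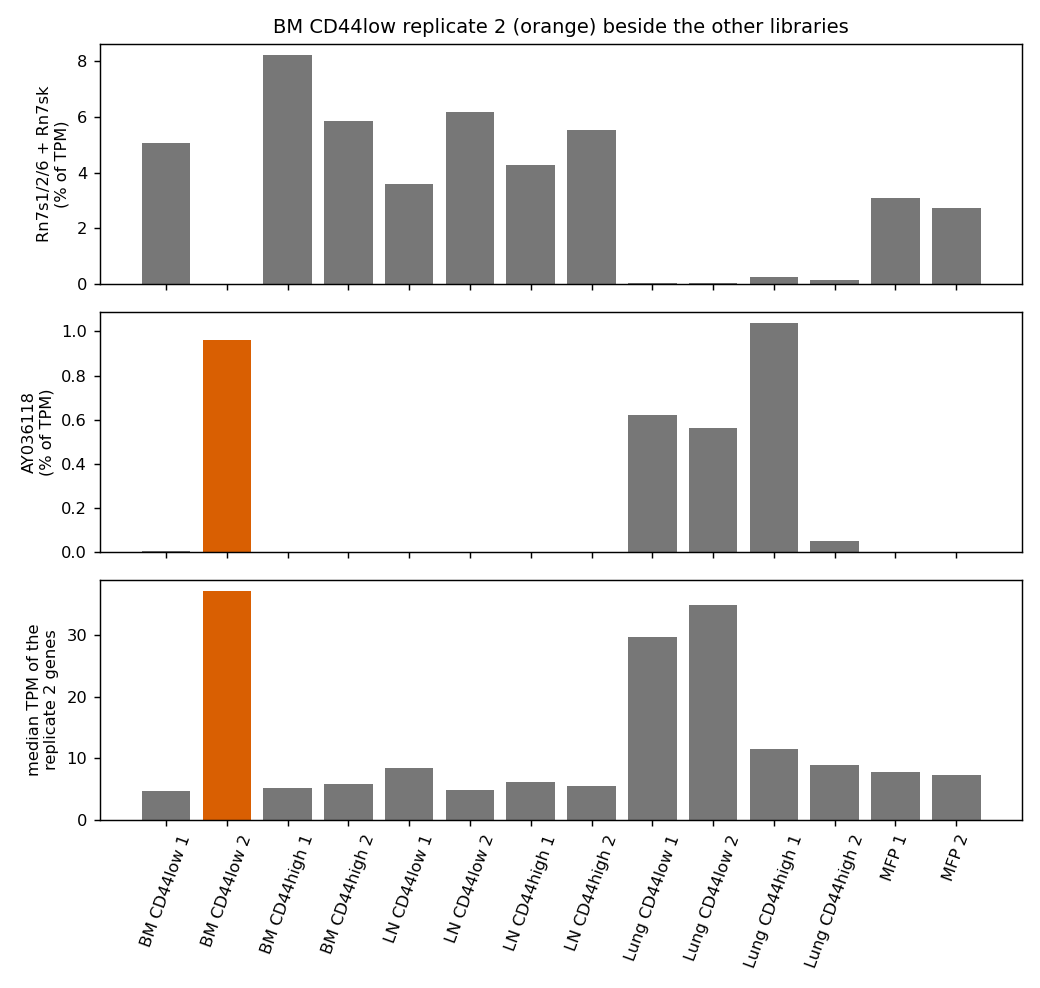
Share of TPM in Rn7s1, Rn7s2, Rn7s6 and Rn7sk together (top), share in AY036118 (middle) and median TPM of the 793 genes higher in BM CD44low replicate 2 (bottom) in each of the 14 bulk libraries. BM CD44low replicate 2 is orange, and its 3 bars are closer to those of the lung CD44low libraries than to those of the other BM libraries.

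In some measures of RNA make-up replicate 2 was closer to lung libraries than to the other BM libraries, and in others not. Ribosomal protein genes took 14.5% of its TPM, the highest of the 14 libraries, against 9.01% to 9.49% in the other BM libraries and 7.65% to 11.1% in lung. The 4 small noncoding RNAs took 0.0174% of its TPM, against 5.07% to 8.21% in the other BM libraries, 2.73% to 6.18% in LN and MFP, and 0.0373% to 0.261% in lung. The noncoding gene AY036118 stood at 9624 TPM in replicate 2, at 26.3 TPM in replicate 1 and at 0 in both CD44high libraries, in LN and in MFP, against 502 to 10368 TPM in lung. The 793 genes, chosen for being higher in replicate 2 than in replicate 1, had a median of 37.1 TPM in replicate 2 and of 4.72, 5.25 and 5.79 TPM in the other BM libraries, of 29.6 and 34.9 TPM in lung CD44low, and of 11.5 and 8.93 TPM in lung CD44high. For 306 of them (38.6%) both lung CD44low values were also more than 2 above both MFP values, as for 4.12% of the other 7909 genes at this level. *JUND* and *RALY* in lung CD44low, at 144 and 226 TPM and at 151 and 161 TPM, were near the values of replicate 2.

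Genes abundant in lung CD44low cells and low in the other BM libraries were also low in replicate 2. Of 40 protein-coding genes with at least 100 TPM in both lung CD44low libraries and under 0.5 TPM in the other 3 BM libraries, 1 reached 1 TPM in replicate 2, at 1.12 TPM, and their median there was 0.035 TPM against 240.1 TPM in lung. *EPCAM*, at 464 TPM in replicate 2, was at 0 in lung CD44low. The excess in replicate 2 also moved with transcript properties: among protein-coding genes at 5 TPM the share past 2 was 5.47% in the shortest sixth by exonic length and 15.2% in the longest, and 12.8% in the sixth with the highest GC content against 7.65% to 8.84% in the others. The part of RNA make-up, length or GC content in the difference between the 2 libraries was not tested. The labels name no batch for any library.

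The difference was spread over the nuclear genome. Among genes averaging at least 5 TPM in BM, over 20 nuclear chromosomes, the median of replicate 1 minus replicate 2 lay between -0.32 (chromosome 5) and -0.08 (chromosome X), and the median CD44high to CD44low fold change between -0.31 (chromosome 6) and -0.17 (chromosome 12). The 20 genes of the mitochondrial chromosome went the other way, with medians of 0.99 for replicate 1 minus replicate 2 and 0.88 for CD44high against CD44low. Mitochondrial genes took 6.45% and 4.28% of TPM in CD44low and 6.11% and 10.1% in CD44high libraries, so that in this share the groups overlapped.

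The inflammatory lists were also counted without replicate 2. Against BM CD44low replicate 1 alone, both CD44high values were higher for 18 of 20 acute-phase genes, 20 of 23 NF-kB genes, 9 of 14 chemokines, 26 of 40 interferon-stimulated genes and 12 of 18 genes of MHC class I presentation, against 25.3% of all genes. Among members that reached 1 TPM in both groups the counts were 14 of 16 acute-phase and 19 of 22 NF-kB genes, against 25.1% of all such genes. The list medians without replicate 2 were 1.26, 0.51, 1.11, 0.38 and 0.34 in that order, against -0.08 for all genes. These values set 2 clones against 1 and carry no test.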

How the data were processed

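Total RNA of the cultured lines was measured by bulk RNA-seq. The authors used a modified SMART-seq2 method for cDNA, sequenced to a stated minimum of 10 M reads, aligned reads to mm10 with STAR and quantified them with RSEM on GENCODE v21, without pooling replicates, and deposited TPM values for each library. TPM keeps no depth, so counting error could not be computed, and a low or zero TPM is uncertain. The single-cell matrices were not used here.

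Of 55450 genes, all matched to GENCODE vM21, the 15348 that reached 1 TPM in 2 or more of 14 libraries were fitted as log2(TPM + 1) with limma 3.58.1 (R 4.3.3, lmFit and eBayes with trend) as 7 group means. Contrasts were CD44high against CD44low in BM, and that difference minus the one in LN or lung. A gene was called when its log2 fold change passed 2 in either direction and its p, adjusted by the Benjamini-Hochberg method across all genes tested, was under 0.05. Fold changes on this scale understate changes of low genes. Overlap and replicate differences were counted over the 12489 genes with at least 1 TPM in 2 or more of 4 BM libraries. Groups follow the deposited labels. Promoters came from RefSeq (GRCm38.p6), and a motif was searched by its letters on both strands of 250 bases. The procedure was tested on simulated data. Tables were handled with Python 3.11.15 and pandas 2.3.3.

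The named genes are *CD44*, *EPCAM*, the 12 largest rises and falls among called, non-overlapping genes (filled up with the next largest), the 10 genes that differed most each way between the CD44low libraries at 5 TPM or more on average, and in each list the called members and up to 4 by level, fold change and CD44low difference. Gene models with numbers only, pseudogenes and mitochondrial genes were left out of the first 2 sets. The members, lists and rules were chosen with earlier results of these data known. The authors' own comparison tables were not used. Alternatives were a pseudocount of 0.1, no filter, 5 TPM, median-ratio scaling over 8694 genes, a replicate block, the 4 BM libraries alone, the unadjusted p and each library left out. The alternatives for list and chromosome medians, the non-overlap counts without 1 library and the LN and lung comparisons of single genes without 1 library were chosen after seeing the data.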

Additional observations from a re-analysis of the deposited data

Results flagged for a closer look

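The CD44 difference in BM was called unlike that in LN for 18 genes and unlike that in lung for 1329, by limma interaction contrasts. Among the genes called within BM, the BM difference minus the LN difference was 3.35 for *SAA2*, 3.35 for *SAA1*, 2.49 for *VNN3* and 2.23 for *TLR2* on the log2 scale, and -6.43 for *SNORD19*, -4.99 for *ASDURF* and -3.02 for n-TSaga9. The BM difference minus the lung difference was 4.75 for *SAA3*, 3.14 for *SAA2*, 3.44 for *SAA1*, 6.07 for *CXCL5*, 2.54 for *VNN3*, 2.56 for *TLR2*, 2.10 for *NOS2* and 2.84 for Gm12306, and -6.43 for *SNORD19*, -2.97 for *ASDURF* and -3.02 for n-TSaga9. *SNORD19* and n-TSaga9 were listed at 0 in all LN and lung libraries, *SAA1* and *VNN3* in all LN libraries, and *NOS2* in all lung libraries. In those comparisons the organ difference only repeats the BM fold change. With 1 library left out, the LN differences of *SAA2*, *SAA1*, *VNN3*, *TLR2*, *ASDURF* and n-TSaga9 lost their call without either LN CD44high library. Those of *SAA2*, *SAA1*, *VNN3*, *TLR2* and *ASDURF* also lost it without BM CD44low replicate 2, those of *SAA2*, *TLR2* and *ASDURF* without LN CD44low replicate 1, and those of *TLR2* and *ASDURF* without either BM CD44high library, at adjusted p from 0.050 to 0.18. Against lung, *NOS2* fell under the fold threshold without BM CD44low replicate 2 (1.96) or BM CD44high replicate 1 (1.98), and *ASDURF* lost its call without either BM CD44high library or without lung CD44low or CD44high replicate 2, at adjusted p from 0.063 to 0.096.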

How the results depend on the processing

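In BM, the 8 genes called higher were 5 at a 5 TPM filter, 0 in the 4 BM libraries alone and 38 at the unadjusted p. The 8 called lower were 13 with a pseudocount of 0.1, 0 in the 4 BM libraries alone and 85 at the unadjusted p. Leaving out 1 BM library gave 4 (without CD44low replicate 2) to 52 (without CD44low replicate 1) higher and 8 to 923 (without CD44low replicate 1) lower, and 20 lower without CD44high replicate 1. A lone library was assumed to vary like the other groups. Against LN, the 8 differences above 0 and 10 below 0 ranged from 2 to 60 and from 4 to 659 with 1 library left out, the highest again without BM CD44low replicate 1 and the lowest without LN CD44high replicate 1, and the pseudocount gave 20 below 0. Against lung, the ranges were 773 to 1376 and 289 to 809, highest without BM CD44low replicate 2 and replicate 1 in turn. Non-overlapping genes were 1748 higher and 5606 lower with no filter, 557 higher at 5 TPM, 1922 and 1766 after scaling, and 1908 to 3154 and 4974 to 7655 with 1 library left out, where fewer values need to agree. Genes past 2 between the CD44low libraries were 128 (pseudocount) and 113 (no filter) for replicate 1 over 2, and 510 (5 TPM) for replicate 2 over 1.

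Scaling moved the list medians to 1.15 for chemokines, 0.92 for NF-kB, 0.78 for MHC class I, -0.11 for DNA replication and -0.11 for mitosis, and the chromosome medians to between -0.040 and 0.090. The NF-kB median was 0.93 with the pseudocount. With 1 library left out the medians ranged as follows: acute-phase 1.18 to 2.24, chemokines 0.64 to 1.11, NF-kB 0.51 to 0.76, interferon 0.18 to 0.77, MHC class I 0.28 to 0.71, glycolysis -0.050 to 0.61, replication -0.55 to -0.20, mitosis -0.66 to -0.14 and Wnt -1.66 to 0.0022. The log2 fold change of *CD44* ranged from -0.58 (without CD44low replicate 1) to 0.18 (without CD44low replicate 2) and was 0.078 after scaling, and that of *EPCAM* ranged from -0.40 (without CD44low replicate 2) to 0.38 (without CD44low replicate 1), was 0.21 without CD44high replicate 2 and 0.27 after scaling. For the other differences the cause was not tested. The labels and methods do not say whether equal replicate numbers mark the same mouse. Over 12489 genes the replicate differences in CD44low and CD44high correlated at 0.09. With CD44low replicate 2 standing apart, this value cannot settle the question. With the replicate number as a block, 10 genes were called higher and 8 lower, among them all 16 of the calls without the block.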

Other observations

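Of 17 measured stem cell and sorting markers, 3 were higher in CD44high cells without overlap (17.6%, against 7.37% of all genes) and 2 lower (11.8%, against 27.8%). After median-ratio scaling the shares were 23.5% and 0%, against 14.8% and 13.8% of all genes. *CD14*, the co-receptor for bacterial lipopolysaccharide, stood at 99.0 and 70.2 TPM in CD44low and at 262 and 116 TPM in CD44high cells. *LY6A* (Sca-1) stood at 5.28 and 6.90 against 14.6 and 9.70 TPM, and *ALDH1A1* at 6.25 and 2.33 against 1.35 and 1.83 TPM. None of the 3 was called.

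Of 16 milk protein and luminal genes 3 were higher without overlap and 4 lower (18.8% and 25.0%, against 7.37% and 27.8% of all genes). After scaling these shares were 31.25% and 12.5%, against 14.8% and 13.8% of all genes. *LTF* (lactoferrin) stood at 6.72 and 3.34 TPM against 26.6 and 7.26 TPM, *CSN3* (kappa casein) at 16.4 and 26.6 against 11.9 and 4.37 TPM, and *AREG* (amphiregulin), a ligand of the EGF receptor, at 36.8 and 73.2 against 20.2 and 16.6 TPM. Of the TGF-beta and BMP genes 10 of 29 were lower without overlap (34.5%, near the 27.8% of all genes) and 1 higher (3.45%), which passed the filter through the CD44high libraries alone. *INHBA*, a subunit of activin, stood at 23.9 and 19.9 against 7.98 and 11.5 TPM. None of these was called.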
